A study of Rattus norvegicus with 6 samples.

Results

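The alpha, theta and microsomal glutathione S-transferases of the rat renal cortex were followed through 10 genes, 5 of the alpha class (Gsta1 to Gsta5), 3 of the theta class (Gstt1 to Gstt3) and the microsomal Mgst1 and Mgst2. Their probes were found by the RefSeq accession that each array probe carries. 9 of the 10 genes had such a probe, of 15284 genes named on the array, and 14 probes stood for them. For Gstt3 no probe was matched, so it is not analysed here. All 14 probes were well above background on all 6 arrays, and none was saturated or marked as an outlier.

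Total RNA of the renal cortex from male Sprague-Dawley rats (Crl:CD(SD), an outbred stock), bought at 5 weeks of age, was hybridised to single-colour Agilent arrays, 1 array per rat. 3 rats received corn oil, the vehicle, for 4 weeks. The other 3 received tris(2-chloroethyl)phosphate (TCEP), a chlorinated organophosphate flame retardant, at 400 mg/kg/day for the same 4 weeks, and no other agent or allele is named for either group. A level is given as the log2 processed signal less that array's 75th percentile. A difference is the TCEP mean less the vehicle mean in log2 units, and ± stands for the SD (n = 3 arrays). TCEP replicate 1 stood apart in some liver markers. Albumin (Alb) and transthyretin (Ttr) were well above background on that array alone, at 1.80 and 1.23 times its 75th percentile, and at 0.0045 to 0.012 and 0.0035 to 0.0094 times it on the other 5 arrays. Serpina1 was at 0.155 times it on that array and at 0.017 to 0.027 on the others. Apob did not follow, with log2 levels of -1.40 there, -0.12, -0.94 and -0.23 in vehicle and -1.55 and -0.85 on the other TCEP arrays. Fgb (-0.46) and Apoa1 (-4.09) were highest on that array, with the next array at -0.56 for Fgb and -5.01 for Apoa1. The members' values are therefore given without TCEP replicate 1 too. A bulk signal cannot tell a change in the number of cells of a type from a change in RNA per cell.

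Glutathione S-transferases join glutathione to electrophilic compounds, which marks them for export and excretion as mercapturates. The alpha enzymes are soluble dimers abundant in liver and in the proximal tubule of the kidney, and they also reduce lipid hydroperoxides. Theta enzymes act on small halogenated compounds and alkyl sulfates, while the microsomal enzymes are membrane proteins of a separate family, which also holds enzymes of leukotriene synthesis. Transcription of many alpha genes is known to respond to NRF2 through antioxidant response elements.

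Names in the alpha class have moved between genes. In the RefSeq gene table used here (GRCr8), Gsta3 and Gsta5 stand among the older names of Gsta1, Gsta5 among those of Gsta3, Gsta2 among those of Gsta5, and Gsta1 among those of Gsta2. In that table Gsta4, Gsta5 and Gsta2 are next to each other, with 0 protein-coding genes between neighbours, and Gsta3 and Gsta1 are next to each other on another chromosome. Gstt1 adjoins Gstt3, and Gstt4 and a second annotated gene lie between Gstt2 and Gstt1. Alpha genes have near-identical copies, so a probe may take up signal from a relative, which makes values of single alpha genes uncertain.

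8 of the 9 measured genes had a higher mean in TCEP-treated cortex and 1, Mgst2, a lower one. The highest differences belonged to Gsta5 (0.46), Gsta4 (0.41), Gstt1 (0.39) and Gsta2 (0.35), which correspond to 1.37, 1.33, 1.31 and 1.28 times the vehicle level. The median over the 9 genes was 0.16, against 0.01 over all 11804 genes tested, of which 52.5% had a higher mean. The median was 0.35 over the 5 alpha members, all with a higher mean, and 0.24 over the 2 measured theta members. None of the 9 passed the test, limma with Benjamini-Hochberg adjustment over all genes at 0.05, where 0 of 11804 genes (0%) passed. At an unadjusted limma p under 0.05 stood 3 members that were higher (Gstt1, Gsta5 and Gsta4), against 4.21% of all genes, and 1 that was lower (Mgst2), against 4.12%. Those 497 higher genes were 50.6% of the 983 genes at that level, and without scaling between arrays the higher share was 69.6%. All TCEP arrays lay above all vehicle arrays for the same 3 members, where 8.63% of all genes did so, and below them for Mgst2, as for 6.97% of all genes. An exact permutation test of 3 against 3 rats cannot go below p = 0.1, so the single-gene comparisons rest on the limma fit. The members' median was 0.10 without vehicle replicate 3, 0.24 without vehicle replicate 2 and 0.29 without TCEP replicate 3, and 5 members did not overlap in the higher direction without vehicle replicate 2, where 15.3% of all genes did so. Without TCEP replicate 1 the differences were 0.42 for Gsta5, 0.35 for Gsta4, 0.32 for Gstt1, 0.30 for Gsta2, 0.22 for Gsta1, 0.10 for Gsta3, 0.066 for Mgst1, 0.0059 for Gstt2 and -1.11 for Mgst2. Whether liver RNA had a part in the members' values with that array was not tested. All vehicle arrays shared slide 1 and scan 1 and all TCEP arrays slide 2 and scan 2, so slide and treatment cannot be told apart in any of these values.

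**Figure D1:**
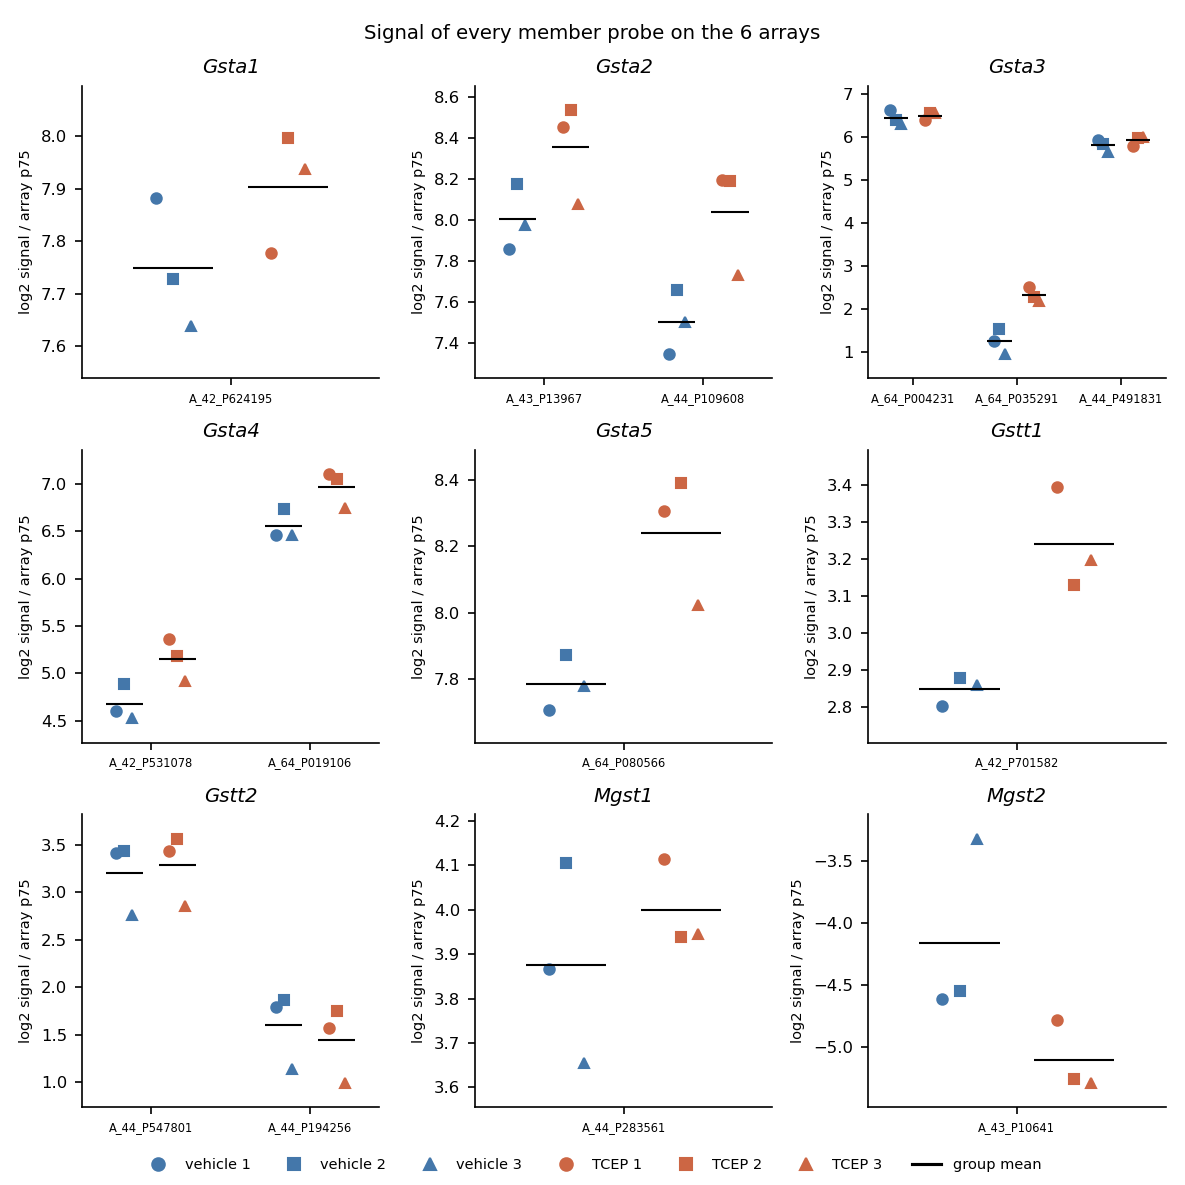
Log2 processed signal relative to the array's 75th percentile (vertical axes, which differ between panels and do not start at 0) for every probe of the 9 measured genes. Each point is 1 array, blue for vehicle and orange for TCEP with a symbol per replicate, and the black line is the group mean. Gsta5 and Gstt1 show separated groups, while for Gstt2 replicate 3 of each group lies apart from the other arrays.

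At the probe that stood for each gene, the neighbouring genes Gsta4, Gsta5 and Gsta2 had the highest differences of the alpha class. Gsta5, which encodes a cytosolic alpha subunit, was at 7.71, 7.87 and 7.78 on the vehicle arrays and at 8.31, 8.39 and 8.02 on the TCEP arrays. All 3 TCEP-treated rats were above all vehicle rats, with 0.15 between the nearest arrays, and TCEP replicate 3 was the closest to the vehicle range. The difference was 0.46 (SE 0.11, 95% confidence interval 0.18 to 0.73, adjusted p = 0.535).

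Gsta4, whose enzyme has high activity towards 4-hydroxynonenal and related products of lipid peroxidation, was represented by probe A_64_P019106. Its levels were 6.46, 6.74 and 6.46 in vehicle rats and 7.10, 7.05 and 6.75 in TCEP-treated rats. The groups did not overlap, but vehicle replicate 2 and TCEP replicate 3 were only 0.01 apart. The difference was 0.41 (SE 0.13, 95% confidence interval 0.09 to 0.73, adjusted p = 0.552). Its second probe, A_42_P531078, carries the same accession and differed by 0.48 (SE 0.15 in the fit over all 41040 detected probes), also without overlap.

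Gsta2, a major alpha subunit of rat liver and kidney, had levels of 7.86, 8.18 and 7.98 in vehicle rats and 8.45, 8.54 and 8.08 in TCEP-treated rats at probe A_43_P13967. TCEP replicate 3 lay inside the vehicle range, so the groups overlapped. The difference was 0.35 (SE 0.15, 95% confidence interval -0.01 to 0.72, adjusted p = 0.607). At probe A_44_P109608 the difference was 0.54 (SE 0.16), with TCEP arrays at 8.19, 8.19 and 7.73 and vehicle arrays at 7.34, 7.66 and 7.50, which did not overlap. Both Gsta2 probes thus placed TCEP replicates 1 and 2 above every vehicle array, and they differed in where replicate 3 lay.

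Gsta1 and Gsta3, neighbours on chromosome 9 (GRCr8), differed less than the Gsta4, Gsta5 and Gsta2 genes at the probes that stood for them. Gsta1, which encodes a cytosolic alpha subunit, was at 7.88, 7.73 and 7.64 in vehicle and 7.78, 7.997 and 7.94 in TCEP arrays. The groups overlapped through vehicle replicate 1 and TCEP replicate 1. The difference was 0.16 (SE 0.10, 95% confidence interval -0.08 to 0.39, adjusted p = 0.711). Relative to each gene's vehicle mean, the mean of Gsta4, Gsta5 and Gsta2 was 0.51, 0.55 and 0.17 on the TCEP arrays, while the mean of Gsta1 and Gsta3 was -0.01, 0.18 and 0.15. The first minus the second was 0.52, 0.37 and 0.02 on the TCEP arrays and -0.26, 0.18 and 0.08 on the vehicle arrays, so TCEP replicate 3 lay within the vehicle range for this contrast. The grouping by neighbourhood was made after the values were seen and was not tested.

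The 3 probes of Gsta3 gave different results. Gsta3 encodes an alpha subunit known for its activity towards aflatoxin epoxide in the rat. At A_64_P004231, the probe that stood for the gene, levels were 6.62, 6.40 and 6.30 in vehicle and 6.38, 6.54 and 6.54 in TCEP arrays. The groups overlapped and differed by 0.05 (SE 0.10, 95% confidence interval -0.21 to 0.31, adjusted p = 0.917). At A_44_P491831, which carries another Gsta3 accession, the difference was 0.12 (SE 0.10), also with overlap.

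At A_64_P035291, which carries the same accession as A_64_P004231, levels were 1.26, 1.53 and 0.96 in vehicle and 2.51, 2.28 and 2.18 in TCEP-treated rats. Every TCEP-treated rat was at least 0.65 above every vehicle rat at this probe. The difference was 1.07 (SE 0.17, 95% confidence interval 0.67 to 1.48, adjusted p = 0.487 over 41040 probes), a 2.10-fold higher level. It ranked 51 by p and 235 by absolute difference among all probes tested, and did not pass the threshold, where 0 probes (0%) did. Its difference was between 0.93 (without vehicle replicate 3) and 1.21 (without vehicle replicate 2) in the 12 other settings, and 0.98 without TCEP replicate 1. The contrast between A_64_P035291 and A_64_P004231, taken within each array, was -5.36, -4.87 and -5.34 in vehicle and -3.87, -4.26 and -4.36 in TCEP arrays. These groups did not overlap. The contrast was chosen after the probes' differences were seen, so it is a description of the same values and was not tested. Of 6088 genes with several detected probes, 25 (0.411%) had probes whose differences lay at least as far apart as the 1.02 of Gsta3, and the median over these genes was 0.11. The 6088 genes were not matched to Gsta3 for number or level of probes, and such a gap can only grow with more probes. The gap was 0.19 for Gsta2, 0.07 for Gsta4 and 0.24 for Gstt2.

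**Figure D2:**
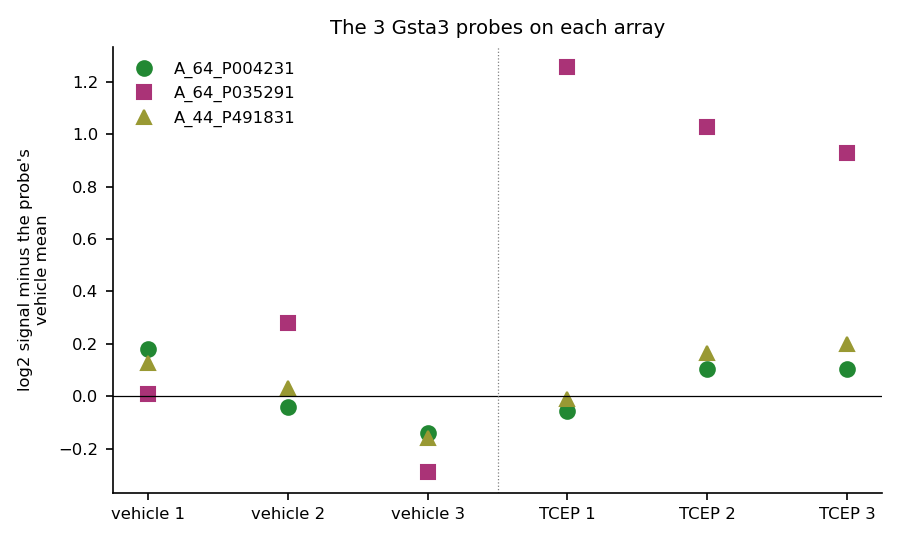
Log2 signal of the 3 Gsta3 probes on each array (vertical axis), relative to that probe's mean over the 3 vehicle arrays, which is the line at 0. The squares, probe A_64_P035291, lie above all other points on the TCEP arrays, with a group difference of 1.07, while the other probes differ by 0.05 and 0.12.

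Gsta3 has 2 annotated starts in the RefSeq promoter table of GRCr8, and which of them a probe reports was not tested. The 250 bases before both starts are shown because the probes of this gene differ, with those of its neighbour Gsta1 and of Gsta2 for comparison. They lie at chr9:31154739-31154988 and chr9:31166793-31167042 on the plus strand (Gsta3), chr9:31216533-31216782 on the minus strand (Gsta1) and chr8:88077093-88077342 on the minus strand (Gsta2), each read 5′ to 3′ on the gene's strand. Capitals mark the antioxidant response element core TGACNNNGC.
Gsta3 first start: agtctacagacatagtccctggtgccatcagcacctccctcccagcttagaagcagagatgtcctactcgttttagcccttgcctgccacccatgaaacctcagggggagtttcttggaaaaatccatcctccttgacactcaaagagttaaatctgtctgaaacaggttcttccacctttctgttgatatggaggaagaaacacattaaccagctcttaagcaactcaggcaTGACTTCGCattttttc
Gsta3 second start: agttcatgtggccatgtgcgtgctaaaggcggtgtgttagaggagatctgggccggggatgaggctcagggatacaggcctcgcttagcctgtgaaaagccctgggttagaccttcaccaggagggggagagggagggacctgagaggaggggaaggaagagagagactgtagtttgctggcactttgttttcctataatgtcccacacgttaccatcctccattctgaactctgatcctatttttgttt
Gsta1: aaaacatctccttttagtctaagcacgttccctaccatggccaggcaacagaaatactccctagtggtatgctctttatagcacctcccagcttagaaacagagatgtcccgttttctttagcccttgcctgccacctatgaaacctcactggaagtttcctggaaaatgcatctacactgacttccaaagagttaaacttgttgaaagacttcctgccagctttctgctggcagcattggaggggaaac
Gsta2: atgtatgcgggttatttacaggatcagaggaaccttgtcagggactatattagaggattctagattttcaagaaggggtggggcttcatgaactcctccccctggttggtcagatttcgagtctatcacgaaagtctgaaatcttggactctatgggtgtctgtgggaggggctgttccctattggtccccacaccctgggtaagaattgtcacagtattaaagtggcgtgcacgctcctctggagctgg

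In the full windows of 300 bases, which reach 50 bases past the start, TGACNNNGC was searched on both strands. It was found as TGACTTCGC in the first Gsta3 window, at bases -17 to -9 from the start, as TGACTTTGC in the Gsta1 window, at bases 31 to 39 after the start, and as TGACCTAGC on the reverse strand of the Gsta2 window, at bases 37 to 45. These were 3 of 8 windows of 7 members, and 12.1% of all 33469 windows in the table held the core. The first Gsta3 window and the Gsta1 window were identical at 200 of 247 aligned bases (81.0%), and the matches in both are on the same strand. GCGTG, the core of the xenobiotic response element bound by the aryl hydrocarbon receptor, was in 3 of the 8 windows (Gsta2, Gsta4 and the second Gsta3 start), against 29.7% of all windows. The CCAAT box was in 5 of the 8, against 37.5%. Windows for Gstt1, Gstt2 and Mgst2 were not matched. Bases farther from a start were not searched, and these matches describe the letters of the reference and not binding.

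Among theta genes, Gstt1 was higher with TCEP and Gstt2 varied between rats of both groups. Gstt1, whose enzyme conjugates small halogenated alkanes, was at 2.80, 2.88 and 2.86 in vehicle and 3.40, 3.13 and 3.20 in TCEP arrays. The vehicle rats were close to each other, and the lowest TCEP array lay 0.25 above the highest vehicle array. The difference was 0.39 (SE 0.09, 95% confidence interval 0.18 to 0.61, adjusted p = 0.533), and Gstt1 had the smallest p of the 9 members, at rank 88 among all genes.

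Gstt2, a theta enzyme active on alkyl and arylmethyl sulfates, was at 3.42, 3.43 and 2.76 in vehicle and 3.43, 3.57 and 2.86 in TCEP arrays at probe A_44_P547801. Replicate 3 of each group was low and the other 4 rats were close together, so the groups overlapped almost fully. At A_44_P194256 the levels were 1.80, 1.87 and 1.14 in vehicle and 1.57, 1.75 and 1.00 in TCEP arrays, with the same rats low. The differences were 0.08 (SE 0.26, 95% confidence interval -0.56 to 0.72, adjusted p = 0.952) and -0.16 (SE 0.27), opposite in sign. The SD of Gstt2 within groups, 0.38, was above that of 90.4% of genes tested, whose median was 0.13. For Gstt1 the same SD was 0.10, above that of 37.0% of genes.

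The microsomal genes gave no common direction. Mgst1, which encodes an abundant membrane transferase with peroxidase activity, was at 3.87, 4.10 and 3.66 in vehicle and 4.12, 3.94 and 3.94 in TCEP arrays. The ranges overlapped, since vehicle replicate 2 lay inside the TCEP range. The difference was 0.12 (SE 0.13, 95% confidence interval -0.19 to 0.44, adjusted p = 0.815).

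Mgst2, whose enzyme can make leukotriene C4, was dim, with processed signals of 39.4, 41.5 and 99.1 intensity units in vehicle and 39.2, 25.5 and 24.8 in TCEP arrays. On the log2 scale these were -4.62, -4.55 and -3.32 against -4.78, -5.25 and -5.28. Every TCEP array was below every vehicle array, by 0.17 at the nearest, and vehicle replicate 3 stood apart from the other vehicle rats. The difference was -0.95 (SE 0.37, 95% confidence interval -1.86 to -0.03, adjusted p = 0.592). It was -0.52 without vehicle replicate 3 and -0.44 under another background correction (normexp), and its SD within groups, 0.55, was above that of 95.8% of genes.

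**Figure D3:**
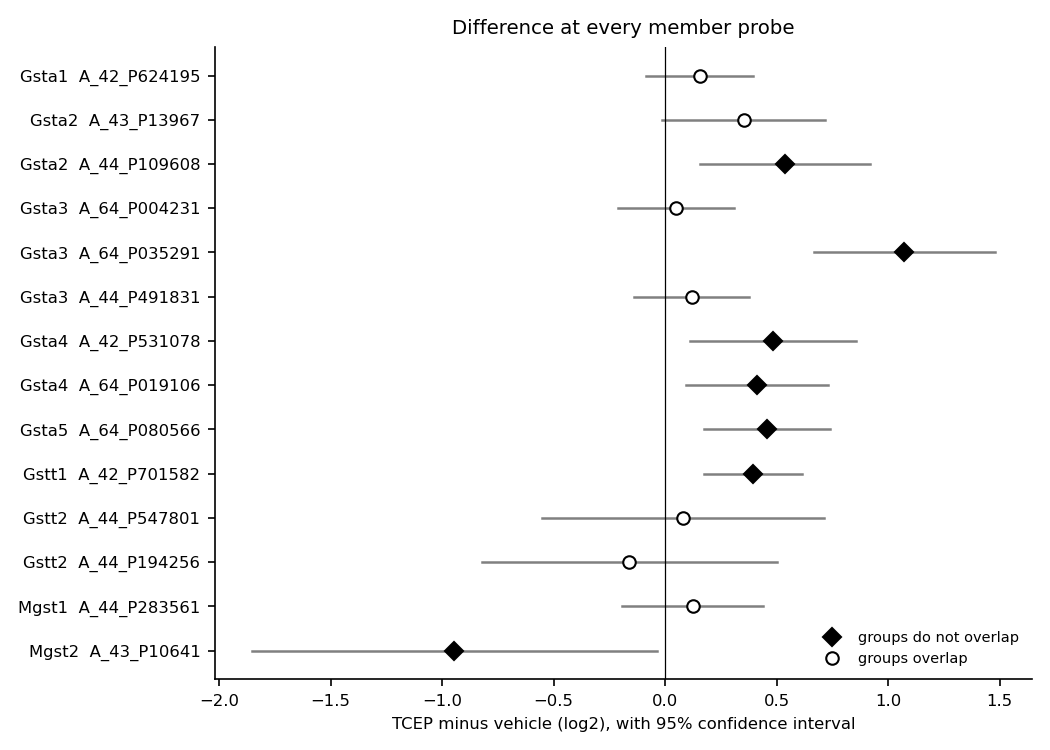
Difference between TCEP and vehicle means (log2, horizontal axis) at the 14 probes with the 95% confidence interval of the fit over all detected probes. Filled diamonds are probes whose groups do not overlap, 6 higher and 1 lower, and open circles are probes whose groups overlap.

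Counted by probe, 12 of 14 had a higher mean in TCEP-treated rats and 6 had no overlap in that direction, against 7.15% of all 41040 detected probes. The same 6 probes had an unadjusted limma p under 0.05, against 3.49% of all probes. They belonged to Gsta2, Gsta3, both probes of Gsta4, Gsta5 and Gstt1, and probes of 1 gene share its RNA and are not separate evidence. The same arrays were often highest or lowest, but not for every member. Of the 9 genes, TCEP replicate 2 had the highest level for 4 and TCEP replicate 1 for 3, and vehicle replicate 3 had the lowest for 5 and vehicle replicate 1 for 3. Vehicle replicates 1 and 3 each had the highest level for 1 gene, and TCEP replicate 3 had the lowest for 1. The median of the members relative to their vehicle means was 0.24, 0.28 and 0.10 on the TCEP arrays and -0.04, 0.09 and -0.09 on the vehicle arrays, so TCEP replicate 3 was just above vehicle replicate 2.

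The list of other transferases and related proteins had 17 tested genes. Of them, 13 had a higher mean and 4 a lower one, with a median of 0.17 and 0 past the adjusted threshold. The list held Gsta6 of the alpha class (0.27) and Mgst3 of the microsomal family (0.08), which were not among the members. Gstm1 and Gstp1, the mu and pi class enzymes, were at 1.67, 2.08 and 1.41 against 2.61, 3.26 and 3.89, and at 5.60, 6.33 and 5.51 against 6.91, 6.59 and 6.68. Both had TCEP arrays above all vehicle arrays, with differences of 1.53 (SE 0.35) and 0.91 (SE 0.23), against a highest difference of 0.46 among the members at the probe that stood for each gene, and of 1.07 at any member probe. Whether the classes differ was not tested. Ptges, a prostaglandin E synthase of the microsomal family, was lower by mean, at -0.39 (SE 0.14).

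Among 24 genes of glutathione supply and conjugate removal, 17 had a higher mean, with a median of 0.09. Gclc, the catalytic subunit of the enzyme that limits glutathione synthesis, was at 7.09, 7.72 and 6.60 in vehicle and 7.94, 7.43 and 6.78 in TCEP arrays, which overlapped. The difference was 0.24 (SE 0.39). Abcc2, an apical pump for glutathione conjugates, differed by 0.51 (SE 0.20), and glutathione reductase (Gsr) by -0.18 (SE 0.07). Of 19 NRF2 regulators and targets, 14 had a higher mean (median 0.15), among them Akr7a3, an aldehyde reductase, at 0.65 (SE 0.18), Srxn1, which encodes sulfiredoxin, at 0.67 (SE 0.26), and Keap1, the NRF2 inhibitor, at 0.16 (SE 0.06). Nqo1, a quinone reductase, differed by 0.60 (SE 0.31) with overlap. Of 8 genes of the glutathione peroxidases, counted with the peroxiredoxin Prdx6, 7 had a lower mean (median -0.12), and Gpx6 differed by -0.44 (SE 0.13). Of 10 nuclear receptors and partners known to regulate transferases, 6 had a higher mean (median 0.09), with Nr1i3 at 0.51 (SE 0.19) and Nr1i2 at 0.19 (SE 0.09). Nr1i3 was dim, with mean levels of -5.31 in vehicle and -4.80 in TCEP arrays, which limits its difference. None of these genes passed the adjusted threshold.

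**Figure D4:**
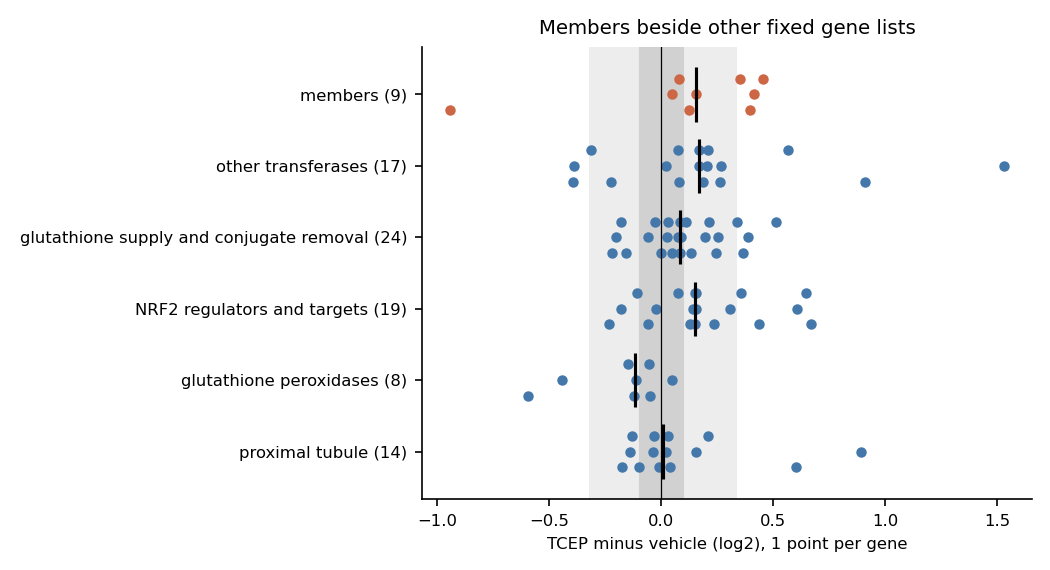
Difference between TCEP and vehicle (log2, horizontal axis) for each tested gene of the members (orange) and of other fixed lists (blue), with the number of genes in brackets and the list median as a black line. The dark and pale bands hold the middle of all 11804 genes, from -0.09 to 0.10 (percentiles 25 to 75) and from -0.32 to 0.33 (percentiles 5 to 95).

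Markers of the proximal tubule, the main site of alpha transferases in the kidney, were all well above background, and 7 of 14 had a higher mean, with a median of 0.01 and a range from -0.17 to 0.89. The highest differences were those of the transporters Slc22a7 (0.89) and Slc7a13 (0.60), named after their values were seen. The water channel Aqp1 was at 0.21 (SE 0.08) without overlap, and Miox, which breaks down inositol, at -0.17 (SE 0.09) without overlap. Slc34a1, the phosphate transporter of that segment, had a level of 8.44 ± 0.05 with vehicle and 8.41 ± 0.14 with TCEP (SD, n = 3 each). The summed signal of the 14 markers, relative to the 75th percentile, was between 2674 and 2783 on vehicle and between 2462 and 2835 on TCEP arrays. Summed signals below are over every gene of a list with a probe. All 4 tested genes of proliferating cells were higher without overlap, against 8.63% of all genes (median 0.81, summed signal 2.42 to 5.06 in vehicle and 6.03 to 6.73 in TCEP arrays). Thick limb and distal tubule markers were lower in 4 of 5 genes (median -0.34, summed signal 431 to 573 and 444 to 599) and collecting duct markers in 6 of 7 (median -0.25, 152 to 218 and 159 to 165). The groups did not overlap for 3 of these 5 genes and 2 of these 7, all lower, against 6.97% of all genes. Podocyte markers were lower in 5 of 5 (median -0.23, 24.1 to 30.7 and 22.9 to 31.3), endothelial markers in 3 of 4 (median -0.08, 27.6 to 33.3 and 24.6 to 32.5) and leukocyte markers in 7 of 7 (median -0.13, 13.1 to 21.5 and 12.9 to 14.5). Of podocyte, endothelial and leukocyte genes, 1, 0 and 0 were lower without overlap. Of fat, liver and adrenal markers, 3 tested genes each, the medians were 0.09, -0.30 and -0.12, and Lep of the fat list and Star of the adrenal list were not well above background on any array. The fat genes went in different directions, with Fabp4 at 1.41 (SE 0.51), Cfd at -0.82 (SE 0.37) and Adipoq at 0.09 (SE 0.16). Fabp4 was dim and did not overlap, at -4.14, -3.82 and -4.20 in vehicle and -1.58, -2.70 and -3.67 in TCEP arrays. Cfd and Adipoq overlapped. Summed signals were 0.95 to 1.62 in vehicle and 1.13 to 1.56 in TCEP arrays for fat, 1.18 to 1.60 and 0.71 to 4.35 for liver, and 0.42 to 0.60 and 0.47 to 0.64 for adrenal markers. The highest liver sum, 4.35, was that of TCEP replicate 1 and came mostly from Alb and Ttr, which were not among the genes tested. Over the 3 tested liver genes the sum was 1.13 to 1.56 in vehicle and 0.66 to 1.17 in TCEP arrays. The part of these cell types in the members' values was not tested. The 75th percentile of the processed signal, used for scaling, was 1078 intensity units on TCEP replicate 1 and between 966 and 990 on the other arrays.

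**Figure D5:**
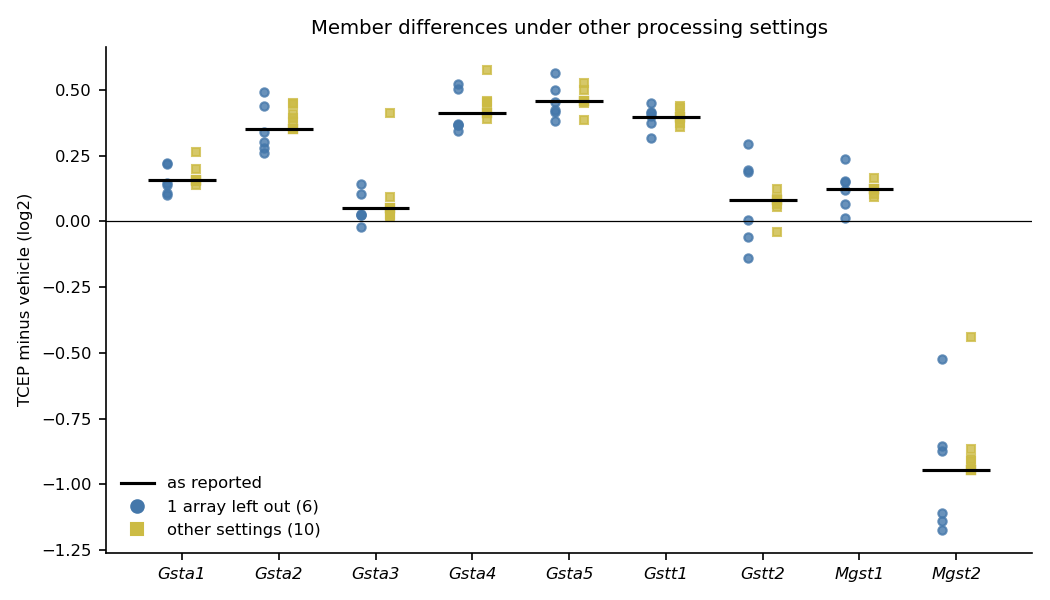
Difference between TCEP and vehicle (log2, vertical axis) of each measured gene as reported (black line), with 1 array left out in turn (blue circles) and under the other 10 processing settings (yellow squares). Gsta1, Gsta2, Gsta4, Gsta5, Gstt1 and Mgst1 lie above 0 and Mgst2 below 0 in all 16 settings, while Gsta3 and Gstt2 cross 0.

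Across the 16 other settings the differences of Gsta5 lay between 0.38 and 0.57, those of Gsta4 between 0.35 and 0.58, those of Gstt1 between 0.32 and 0.45 and those of Gsta2 between 0.26 and 0.49. The smallest adjusted p of any member in any of them was 0.266, for Gsta4 and for Gstt1. When the mean over a gene's probes stood for it, Gsta3 differed by 0.41 in place of 0.05, through probe A_64_P035291. Without vehicle replicate 3 the Gsta3 difference was -0.021 and that of Gstt2 -0.14.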

How the data were processed

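Renal cortex RNA (0.2 ug, Cy3) of 3 vehicle and 3 TCEP rats was measured on 1 array each. The deposited processed signal is a linear intensity, background-subtracted by Agilent Feature Extraction 10.7.1.1 per the file headers and not scaled between arrays. Spot flags are deposited as other values of 0 or 1. The authors' series matrix holds the same intensity divided by a constant per array, within 0.146% of its 75th percentile. The array design is annotated on rn4, and GRCr8 was used for names and promoter windows alone.

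Of 61657 non-control probes, 27460 (44.5%) were named, and 12 outliers were left out. The probe of highest mean stood for a gene, which was tested if either group had it well above background on every array. The scaled log2 signals went into limma 3.58.1 in R 4.3.3, two-sided with group alone and Benjamini-Hochberg over all genes or all probes. The fit was also run on simulated data with independent noise and no slide effect, and no result here rests on that run. Python 3.11.15, pandas 2.3.3, numpy 2.4.6 and matplotlib 3.10.9 were used. The members and lists were chosen with earlier results of these data known. All members and probes are given, and of each other list the 3 genes of smallest p plus Gstm1, Gstp1, Gclc, Nqo1, Slc34a1 and Alb could be named. Gsta6 and Mgst3 are also named, for their classes. No label says that rats with 1 number share a litter or day. No 2 arrays were identical. The number of arrays limits the precision.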

Additional observations from a re-analysis of the deposited data

How the results depend on the processing

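With 0 genes past the adjusted threshold in every setting (limma), no member was called in any. Averaging a gene's probes gave 5 members higher at an unadjusted p under 0.05, against 3.52% of all genes, and a members' median of 0.39, with Gstt2 at -0.040. Normexp on median spot signals, with an offset of 50, gave 5 members higher at that level, against 7.37% of all genes (870 higher of 1568 in both directions), and a median of 0.26. Leaving out each array gave a members' median of 0.10 to 0.29 and 3 to 5 members higher without overlap. In those settings 12.2% to 16.3% of all genes were higher without overlap, against 8.63% with every array kept. Members higher at an unadjusted limma p under 0.05 numbered 2 without TCEP replicate 1, TCEP replicate 2, vehicle replicate 1 or vehicle replicate 3. They numbered 4 without TCEP replicate 3 or vehicle replicate 2, and 3 with every array kept. Of all genes, 2.68% to 4.23% were higher at that level with 1 array left out, against 4.21% with every array kept. Leaving out each array gave Gsta3 at -0.021 to 0.14 and Gstt2 at -0.14 to 0.29 (probe A_44_P194256 at -0.39 to 0.061). It gave 0 to 3 of all probes past the threshold, the 3 without vehicle replicate 2 being a Lyzl1 probe and 2 unnamed ones (A_64_P053331 and A_44_P288015), named after their values were seen. Over all genes tested, deviations of same-numbered rats had correlations of -0.15, -0.10 and 0.23, against -0.33 to 0.37 for the other pairs. Single genes could differ, since Gstt2 and Gclc were lowest in replicate 3 of both groups. The replicate block gave 850 genes at an unadjusted limma p under 0.05 against 983. Higher members at that level were 4 against 3, with 3.48% of all genes against 4.21%. The block changed no call at the adjusted threshold. Separately, 2 members in place of 3 were higher without overlap under quantile normalization, against 7.76% of all genes in place of 8.63%. Finding members by a gene name column could not be run, since the scanner files used here hold none, and probes unnamed here may include some of this family. Mgst2 is limited by dim signal.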
